A study of Mus musculus with 12 samples.

Results

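The regions described here were H3K27ac intervals of untreated cells that had no counterpart after GLI1 had been induced. They were chosen from the authors' peak lists. Of 67463 intervals in the control list, 27140 reached a −log10 q of at least 10, and 2898 of these shared no base pair with any of the 76437 intervals of the doxycycline list. These 2898 are called lost intervals below, the other 24242 control intervals at the same limit are called retained, and 5528 dox intervals at that limit without a control interval are called gained. The lost share was 10.7% of the control intervals at the limit (the share called by this rule), and the gained share was 19.8% of 27878 dox intervals. Since the same lists defined the lost intervals, these counts and their peak values are descriptions and no test was made. A lost interval was absent from the dox list, which is not a measurement of zero acetylation.

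The cells were cardiac progenitors, obtained by differentiating embryonic stem cells of the mouse and collected at day 6. All came from the single line GLI1-FTA in the A2Lox.cre background, in which doxycycline switches on a tagged GLI1. The dox cells received 500 ng/ml doxycycline for 24 hours from day 5 to day 6, and the control cells were the same line left untreated, so a response to doxycycline itself and one to GLI1 cannot be told apart. H3K27ac was immunoprecipitated from 2 samples per condition, and GLI1 was captured on streptavidin beads from 2 dox samples. Each deposited list pooled its 2 samples, so there is no spread between replicates. In bulk samples, fewer cells of a type and less acetylation per cell cannot be told apart.

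Acetylation of lysine 27 on histone H3 marks active promoters and active distal enhancers, the stretches of DNA that switch genes on from a distance. GLI1 is a zinc finger activator at the end of the Hedgehog pathway, and its usual reporters are Ptch1, Hhip and Gli1 itself. In heart development, Hedgehog signalling acts in second heart field progenitors, where it is known to hold back differentiation before the cells become heart muscle.

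Few lost intervals held a start listed in the RefSeq promoter tables, and those that did include muscle genes. The promoters of 6 genes are therefore shown first. The tables lack a start for some protein-coding genes, and these could not be placed. Each window runs from 250 bases before a RefSeq start to 50 after it, 5′ to 3′ on the gene's strand, from RefSeq's GRCm38.p6. Ttn (the giant sarcomere spring titin), Nppb (a natriuretic peptide) and Csrp3 (muscle LIM protein) are the sarcomere and calcium handling genes with a start in a lost interval and none in a retained one. Ccl17 (a chemokine) and Pdlim3 (a LIM protein of the muscle Z disc) had the strongest lost promoters outside the stretches of missing peak numbers described below. Cacna1c (the cardiac L-type calcium channel) is shown as a GC-rich example. Capitals mark matches on either strand to the motifs of 5 factor families that act in heart muscle: GATA, searched as AGATAA, TEAD, searched as GGAATG, E-box factors, searched as CAGCTG (a sequence that reads the same on both strands) or in its other form CATCTG, and MEF2 and the SRF CArG box, searched by their consensus. A match is a match of letters and does not show binding.
Ttn, chr2:76982498-76982797, minus strand: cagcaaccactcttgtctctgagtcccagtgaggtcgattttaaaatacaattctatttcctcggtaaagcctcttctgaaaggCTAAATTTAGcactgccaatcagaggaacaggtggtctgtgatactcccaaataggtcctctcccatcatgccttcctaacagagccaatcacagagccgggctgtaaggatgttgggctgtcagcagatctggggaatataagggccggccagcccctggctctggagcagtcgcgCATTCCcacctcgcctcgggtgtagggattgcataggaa
Nppb, chr4:147985650-147985949, plus strand: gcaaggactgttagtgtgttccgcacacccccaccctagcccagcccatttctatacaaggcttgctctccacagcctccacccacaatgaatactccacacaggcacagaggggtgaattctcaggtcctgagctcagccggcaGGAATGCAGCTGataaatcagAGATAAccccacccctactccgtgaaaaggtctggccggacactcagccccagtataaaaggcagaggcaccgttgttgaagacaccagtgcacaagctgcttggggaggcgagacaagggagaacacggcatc
Csrp3, chr7:48848002-48848301, minus strand: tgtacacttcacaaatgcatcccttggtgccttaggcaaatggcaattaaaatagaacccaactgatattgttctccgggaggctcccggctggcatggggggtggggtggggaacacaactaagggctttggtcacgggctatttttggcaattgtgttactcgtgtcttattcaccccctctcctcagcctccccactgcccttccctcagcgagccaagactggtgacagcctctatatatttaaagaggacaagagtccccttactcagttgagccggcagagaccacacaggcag
Ccl17, chr8:94810203-94810502, plus strand: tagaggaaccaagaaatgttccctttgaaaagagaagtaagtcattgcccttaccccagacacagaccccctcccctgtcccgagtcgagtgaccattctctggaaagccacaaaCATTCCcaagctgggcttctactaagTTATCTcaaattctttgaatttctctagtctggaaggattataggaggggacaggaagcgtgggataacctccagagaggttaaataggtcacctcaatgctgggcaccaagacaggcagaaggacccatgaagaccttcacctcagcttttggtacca
Pdlim3, chr8:45885237-45885536, plus strand: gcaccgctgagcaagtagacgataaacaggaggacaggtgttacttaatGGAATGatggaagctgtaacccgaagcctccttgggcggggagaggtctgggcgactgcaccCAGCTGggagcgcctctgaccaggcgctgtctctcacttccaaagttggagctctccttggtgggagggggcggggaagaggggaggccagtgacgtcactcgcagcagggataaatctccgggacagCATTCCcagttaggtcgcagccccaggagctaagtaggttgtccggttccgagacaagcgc
Cacna1c, chr6:119108446-119108745, minus strand: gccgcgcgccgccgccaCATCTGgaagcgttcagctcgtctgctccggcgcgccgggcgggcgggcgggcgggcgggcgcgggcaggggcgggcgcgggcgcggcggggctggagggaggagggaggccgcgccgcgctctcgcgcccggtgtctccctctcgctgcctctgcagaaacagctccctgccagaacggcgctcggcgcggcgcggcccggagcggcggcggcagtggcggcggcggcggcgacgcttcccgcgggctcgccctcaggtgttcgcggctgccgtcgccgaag

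These windows differ in what they hold. The Ttn window had 1 TEAD and 1 MEF2 match, the Nppb window had 1 GATA match and a TEAD match that runs straight into an E-box, and the Pdlim3 window had 2 TEAD matches and 1 E-box. The Ccl17 window had 1 GATA and 1 TEAD match, the Cacna1c window had 1 E-box and the Csrp3 window had none of the 5 motifs. The control fold enrichment, which is the authors' ratio of the read pileup to the local background, was 21.7 at Ccl17, 14.7 at Pdlim3, 7.83 at Ttn, 7.51 at Csrp3, 7.49 at Cacna1c and 5.23 at Nppb. The nearest dox interval lay 159949 bp from the lost interval at Ttn, 26376 bp away at Ccl17, 20909 bp away at Nppb and 1486 bp away at Csrp3.

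Lost intervals were mostly modest peaks. Their fold enrichment had a median of 6.53, with quartiles of 5.86 and 7.83 and a range of 4.25 to 37.9, against a median of 10.5 in retained intervals and 6.70 in gained ones. In all, 78% of lost intervals had a −log10 q under 20, against 30.1% of retained and 60.1% of gained intervals. At the other end, 212 lost intervals reached a fold enrichment of 10, and 19 reached a −log10 q of 50. They were also narrow, with a median width of 771 bp against 1315 bp for retained and 1156 bp for gained intervals, and together they covered 2.7 Mb. A single summit was listed in 48.6% of them and in 29.4% of retained intervals. After retained intervals had been weighted to the strength of the lost ones that share was 43.7%, so most of this difference went with strength. The 3 members nearest the limit had a −log10 q of 10.02 (in Mideas), 10.04 (in Aspscr1) and 10.05 (in Bicral). The 3 control intervals just outside it, also without a dox interval, had 9.99 (near Med13l), 9.99 (in Xpnpep3) and 9.96 (in Rgs8).

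Loss became rarer as peaks became stronger, and at every strength above the limit it was rarer than gain. Among control intervals with a −log10 q of 10 to 15, 27.1% had no dox interval, while 35.4% of dox intervals of that strength had no control interval. For a −log10 q of 20 to 30 the shares were 10.4% for loss and 21.6% for gain, and for 50 to 100 they were 0.361% and 8.5%. Just below the limit, for a −log10 q of 5 to 10, 45.6% of control intervals (44.8 to 46.4%) and 49% of dox intervals (48.3 to 49.7%) stood alone, and for 2 to 5 the shares were 62.5% and 62.4%. Over control intervals of any strength the share without a dox interval was 37.9%. The dox list was the deeper one, with a uniform background 1.28 times that of the control list. With the dox list scaled to the control depth, 3076 control intervals at the limit lacked a counterpart. The gained shares were not recomputed at equal depth, so the part of depth in the gap between loss and gain was not tested.

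**Figure D1:**
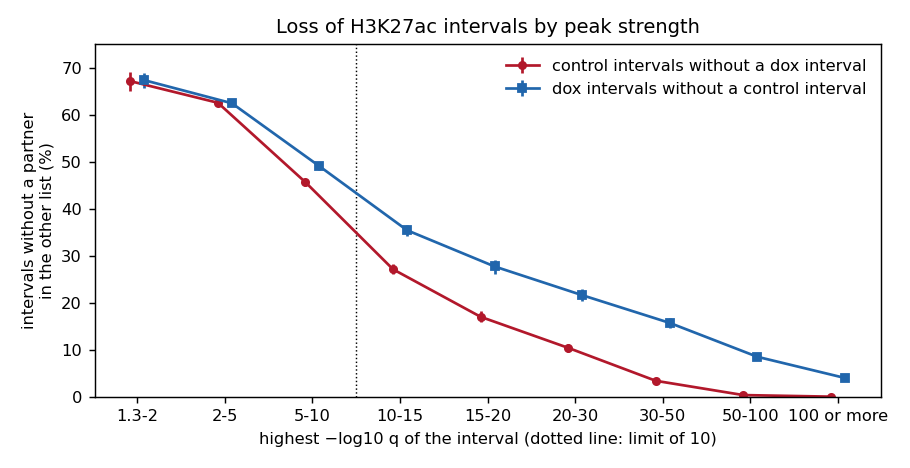
Share of intervals without a partner in the other list (y axis, percent) by the highest −log10 q of the interval (x axis), for control intervals without a dox interval (red) and dox intervals without a control interval (blue); bars are 95% Wilson intervals for counting error. Both curves start near 67% for the weakest peaks and part from a −log10 q of 5 to 10 on (45.6% of control and 49% of dox intervals), with 27.1% of control and 35.4% of dox intervals standing alone in the first bin above the limit of 10.

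The lists also show how much signal the dox list could have missed. Pileups in reads were recovered from the deposited fold enrichment and −log10 p. The lost intervals had a median control pileup of 27 reads, with a range of 21 to 163, equal to 34.6 reads at the depth of the dox list. The weakest dox call at the same background needed a median of 11 reads. The ratio of the scaled control pileup to this limit had a median of 2.91, quartiles of 2.56 and 3.497 and a lowest value of 2.21, and it was at least 4 at 362 intervals. That a dox peak as strong as the control peak would have passed the limit at every lost interval follows from the rule. The rule asks for a control −log10 q of at least 10, while the lowest value in the deeper dox list was 1.33. A dox peak at or under the limit need not have been listed. Running peak numbers skip in 377 stretches of the dox list, and 57 lost intervals (1.97%) lay in such a stretch. These are counted above, and the highest fold enrichment (37.9) and the highest pileup (163 reads) come from one of them. They were left out of the strongest lost intervals and promoters that are named, since a missing number may be a peak that is absent from the file.

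Lost intervals lay away from promoters. Within 1000 bp of an end of a protein-coding gene lay 7.07% of them (95% Wilson interval 6.2 to 8.07%), against 39% of retained and 5.55% of gained intervals. Retained intervals weighted to the strength of the lost ones gave 26.2%, so the difference was not one of strength alone. Between genes lay 51.3% of lost, 27.9% of retained and 45.7% of gained intervals, and inside genes but away from their ends lay 41.6% of lost, 33.2% of retained and 48.8% of gained ones. On chromosomes with coding starts in the promoter tables, such a start lay within 1000 bp of 129 of 2794 lost intervals (4.62%). The shares were 34.9% for retained and 3.04% for gained ones. The promoter tables lack a start for some protein-coding genes, so these shares are lower bounds. In position, lost and gained intervals were thus more like each other than like the retained ones, though the 2 sets lay at different places.

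Lost intervals were seldom near a mapped GLI1 site. The list of 2605 GLI1 sites came from the pulldown and was not used to choose the lost intervals. Per the deposited file name it holds replicated summits with a Gli motif, so GLI1 binding without a motif or seen in a single replicate is not counted. A site lay within 10000 bp of 46 lost intervals (1.59%, 1.19 to 2.11%), against 6.36% of retained intervals (6.06 to 6.68%) and 30.4% of gained ones (29.2 to 31.7%). The order was unchanged after weighting to the strength of the lost intervals, with 6.87% of retained and 24.8% of gained intervals, and the 3 Wilson intervals did not overlap. These intervals cover counting error only. At 100000 bp the shares were 20.2% for lost, 28.7% for retained and 51.9% for gained intervals. The median distance to a site was 318796 bp for lost, 255275 bp for retained and 86997.5 bp for gained intervals.

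Only 2 lost intervals shared a base with a GLI1 site. One lay on chromosome 2 from 133635758 to 133636318, at 72862 bp from Bmp2 (a BMP ligand that drives cardiac and smooth muscle differentiation), with a control fold enrichment of 6.33. The other lay on chromosome 7 from 4997288 to 4997699, at 1187 bp from the zinc finger gene Zfp579, with a fold enrichment of 7.83. The next nearest were a second interval near Bmp2, 127 bp from the same site, one in Otub2 (a deubiquitinase) at 1493 bp and one near Tmem108 at 1700 bp. The 2 Bmp2 intervals lay 63925 and 62876 bp from the nearest dox interval, so no dox peak was listed at this GLI1 site or close to it. In contrast, the nearest dox interval was 470 bp from the Zfp579 interval, 131 bp from that in Otub2 and 927 bp from that near Tmem108.

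**Figure D2:**
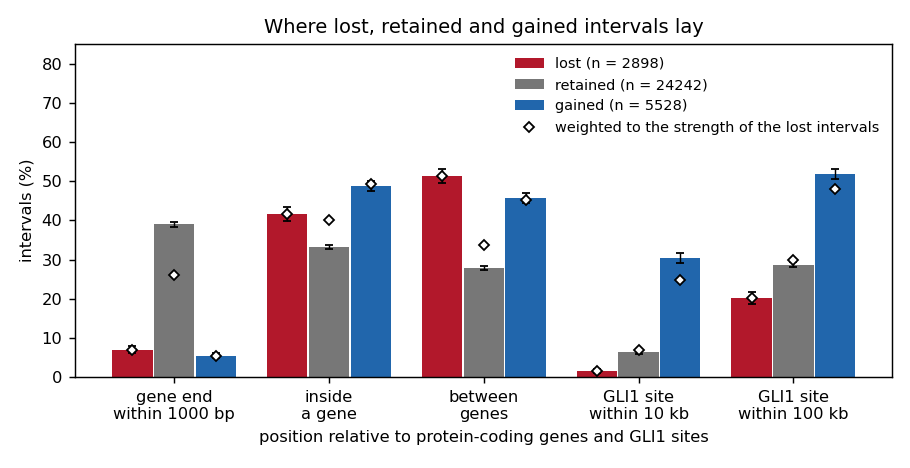
Share of intervals (y axis, percent) at gene ends, inside genes, between genes and within 10 or 100 kb of a GLI1 site (x axis), for lost (red), retained (grey) and gained (blue) intervals, with 95% Wilson intervals and, as diamonds, shares weighted to the strength of the lost intervals. Lost intervals had the lowest share with a GLI1 site within 10 kb, 1.59% against 6.36% of retained and 30.4% of gained intervals.

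Many lost intervals lay near an interval of the dox list, which may or may not have had a control counterpart. A dox interval lay within 10000 bp of 56.5% of them and within 1000 bp of 20.5%, and the median distance was 7338 bp. For gained intervals and the control list the corresponding shares were 43.4% and 8.48%, with a median distance of 13374.5 bp. Of the lost intervals, 1271 (43.9%) fell into 547 groups of at least 2 with gaps of at most 50000 bp, and 126 groups held at least 3. Groups of retained or gained intervals were not counted, so this grouping is not shown to be particular to lost intervals.

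The group with the most members was at Msx2, a homeobox transcription factor gene induced by BMP signalling. It held 9 lost intervals from 53461998 to 53564417 on chromosome 13, with control fold enrichments of 5.49 to 21.4 and a median of 7.31. The interval of 21.4 lay 2189 bp from the gene and ran from 53474969 to 53477262. The only retained interval of the group lay over the gene itself, with a fold enrichment of 21.0 in the control list. The 3 dox intervals there had fold enrichments of 2.42, 4.32 and 5.19 in their own list, and no gained interval lay in the group. The nearest GLI1 site was 239263 bp away. A further lost interval beyond the Msx2 group, with a fold enrichment of 14.5, was among the 20 strongest.

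**Figure D3:**
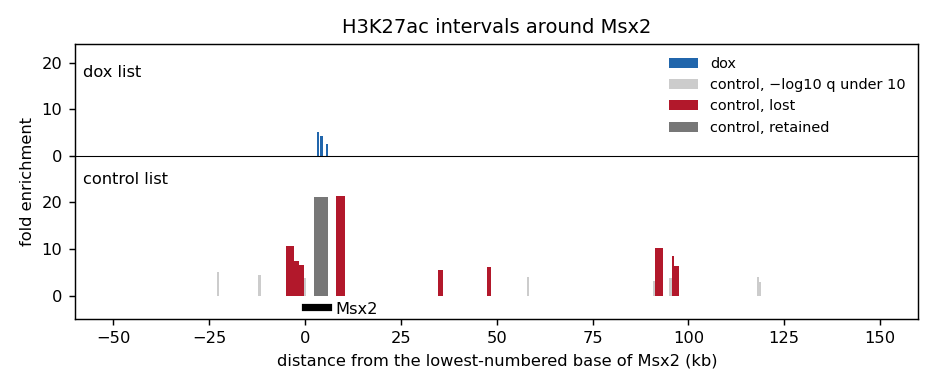
H3K27ac intervals around Msx2, with distance from the lowest-numbered base of the gene in kb (x axis) and the highest fold enrichment of each interval (y axis, bars as wide as the interval), for the dox list (blue, above) and the control list (below; red lost, dark grey retained, light grey under the limit of 10). All 9 lost intervals of the group lie in the lower panel, up to 21.4, and the dox list shows 3 intervals over the gene of at most 5.19.

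The other groups with most members show 2 arrangements. The 6 lost intervals at Vrtn and Abcd4 on chromosome 12, with fold enrichments of 5.57 to 10.1, lay among 3 retained intervals and 4 dox intervals, and the 6 at Fer1l6 on chromosome 15, with 4.75 to 8.21, lay among 4 retained and 10 dox intervals. In contrast, the span from 52427278 to 52469111 on chromosome 6 held 5 lost intervals of 5.74 to 13.6 and no dox interval at all. It contains no protein-coding gene, with Hibadh 77119 bp away and the homeobox gene Evx1 nearest to the strongest member. The 5 lost intervals in Filip1, a filamin-binding protein gene, lay from 79879032 to 79920723 on chromosome 9 with fold enrichments of 6.53 to 13.2, again with no dox interval between them. GLI1 sites were absent from all of these spans, the nearest being 130207 bp from the Fer1l6 group.

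The 20 strongest lost intervals, ranked by −log10 q, had fold enrichments of 14.2 to 21.7 and would have stood at 6.52 to 9.56 times the dox limit. Of these, 11 lay between genes, 2 had a coding start within 1000 bp, 17 belonged to a group and 0 had a GLI1 site within 10000 bp. Besides those at Ccl17 and Msx2, they lay in or nearest to genes of varied function. Among these were Enah, an actin filament regulator, with a fold enrichment of 16.2, Amotl1, an angiomotin that binds the Hippo effector YAP, with 14.4, Piezo2, a stretch-gated channel, with 15.7, and Pdlim3 with 14.7. The transcription factor genes were Runx1, which acts in blood formation, with 15.6, Nfkb1 with 15.8, and the POU factor gene Pou3f1 with 14.6 and 14.9 for a pair 86446 and 80689 bp away. One lay 193922 bp from Tgfbr2, the type II TGF-beta receptor, with 14.8. The remaining ones lay in or nearest to Ndfip2 with 18.8, Disc1 with 17.5, Setbp1 and Hsf2bp with 17.0 each, Tent5b with 16.2, Aspscr1 with 14.4 and 15.2, and Piwil4 with 14.2. Amotl1 and Piwil4 are neighbours, and their intervals formed one group.

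Gene lists were then counted by whether a gene had a lost interval within 50000 bp. Over all 20299 protein-coding genes analysed, 2854 (14.1%) had one, and 9.07% of the control intervals near genes were lost (8.7 to 9.44%). None of these analysed genes lay within 50000 bp of 787 lost intervals. Since loss depends on strength and position, each list's share is set beside the share that all control intervals of the same strength and position would give. The distance of an interval to a gene does not show that it acts on that gene. The Wilson intervals of the lists count each control interval as independent. Several lost intervals often lie at the same gene, so these bounds can be too narrow.

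Cardiac transcription factor genes had lost intervals more often than the average gene: 20 of 39 had at least 1, and 37 of 194 control intervals near them were lost (19.1%, 14.2 to 25.2%, against 12.9% from strength and position). Zfpm2, the GATA4 cofactor FOG2, had 6 lost and 1 retained intervals, with control fold enrichments up to 6.80. Zfpm1, the related FOG1, had 4 lost and 10 retained, with up to 12.01. Prdm16 had 3 lost and 3 retained, and Myocd, the SRF coactivator myocardin, had 3 lost and 12 retained. Gained intervals near this list numbered 24. At a −log10 q of at least 20, 3.54% of the list's intervals were lost against 2.94% over all genes. With dox intervals widened by 1000 bp, 15 genes had a lost interval and the share fell to 13.4%, against 7.12% over all genes. The share from strength and position was not recomputed for that setting.

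Sarcomere and calcium handling genes had a lost interval in 25 of 59 cases, and 34 of 271 control intervals were lost (12.5%, 9.12 to 17%, against 10.2% from strength and position). Cacna1c had 4 lost and 13 retained intervals, Ryr2, the calcium release channel of the sarcoplasmic reticulum, had 3 and 4, and Nppa, the atrial natriuretic peptide gene, had 3 and 4. Popdc3, a membrane protein gene of striated muscle, had 3 lost and 1 retained. For most of the 25 genes with a lost interval the loss was thus of some intervals while others remained listed. Of 48 genes of this list with a RefSeq start that could be placed, 3 (6.25%) had it in a lost and in no retained interval, namely Csrp3, Nppb and Ttn, against 43 of 17492 protein-coding genes (0.246%), and 21 had it in a retained one. Cacna1c and Synpo2l, an actin-binding Z disc protein gene, each had an additional start in a lost interval. As a check of the cells, 3 of 7 cardiomyocyte markers had a dox interval within 1000 bp of the gene and 5 of 7 had a control interval. Their highest fold enrichment was 6.39 in dox and 15.01 in control, both at Ryr2, and Myh6 and Nppa were at 0 in both. Of 10 cardiac progenitor markers, 8 had a dox interval and 7 a control interval, with Tbx5 and Nkx2-5 at 0 in both lists. Among markers of other cell types, those of endoderm and endothelium more often had an interval in the dox list, and pluripotent and neural ones did not. Of 4 endoderm markers, 2 had a dox interval and 0 a control interval, with a dox fold enrichment of 34.0 at Foxa2 and 9.51 at Ttr, while Sox17 and Afp were at 0 in both lists. Foxa2 is also in the hedgehog list, with a GLI1 site 5894 bp away. Of 4 endothelial markers, 4 had a dox interval and 2 a control interval, with a highest fold enrichment of 14.7 in dox and 14.6 in control. The 3 neural markers were at 0 in both lists. The part of cell composition in the loss was not tested.

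Genes of Hippo signalling, actin and stretch response had a lost interval in 15 of 36 cases, and 30 of 224 control intervals were lost (13.4%, 9.54 to 18.5%, against 9.22% from strength and position). With dox intervals widened by 1000 bp, the lost share of this list was 10.3%, against 7.12% over all genes. Vgll4 and Vgll3, cofactors of the TEAD transcription factors, had 5 lost and 10 retained intervals and 4 lost and 1 retained. Ccn2, a matricellular protein gene known as a YAP and TEAD target, had 4 lost and 1 retained, with a fold enrichment up to 8.09, and Amotl1 had 3 lost and 6 retained. The 4 lost intervals of Vgll3 reached a fold enrichment of 13.0, and 1 of them held its RefSeq start. In BMP and TGF-beta signalling 10 of 33 genes had a lost interval and 19 of 151 control intervals were lost (12.6%, 8.21 to 18.8%, against 9.4%). Msx2 had 6 lost and 1 retained within 50000 bp, Tgfb2 had 3 and 9, Bmp2 had 2 and 1, and the receptor gene Bmpr1b had 2 lost and no retained interval. A lost interval of Bmp2, with a fold enrichment of 9.14, covered an end of the gene, but Bmp2 has no start in the promoter tables.

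The hedgehog list was not rich in lost intervals: 6 of 48 genes had one, and 14 of 169 control intervals were lost (8.28%, 5 to 13.4%, against 10.3% from strength and position), while 35 gained intervals lay near the same genes. The 4 genes with most lost intervals were 2 transcription factors of the pathway, a target and a coreceptor. Gli3, the main repressor of the pathway, had 4 lost and 12 retained intervals, with a fold enrichment up to 7.63. Gli2, its main activator in the embryo, had 3 lost and 10 retained, with up to 7.95. Mycn, a proliferation gene downstream of Hedgehog, had 3 lost and 2 retained, with up to 13.1, and Cdon, a Hedgehog coreceptor, had 2 lost and 3 retained, with up to 9.15. No gained interval lay within 50000 bp of these 4 genes. The other 2 genes of the list with a lost interval had 1 each, and Gli1 itself had 0 lost, 7 retained and 2 gained intervals.

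Among the other lists, pluripotency genes had the highest lost share, 8 of 39 intervals (20.5%, 10.8 to 35.5%, against 8.13%), and these were near 5 of 21 genes, with 3 at Lin28a and 2 at Tdgf1. None of the 25 intervals near this list with a −log10 q of at least 20 was lost. With dox intervals widened by 1000 bp, the lost share of the list was 12.8%, against 7.12% over all genes. The share from strength and position was not recomputed for that setting either. Of 4 pluripotent markers, 2 had a dox interval and 2 a control interval, and Pou5f1 and Zfp42 were at 0 in both lists. Endothelial and blood genes lost 12 of 108 intervals (11.1%, 6.47 to 18.4%), in 5 of 31 genes, of which Runx1 had 5 and Flt1, a VEGF receptor, 4. Endoderm genes lost 8 of 64 (12.5%), with 2 at Cdh1 and 1 each at Dab2, Krt8 and Col4a1, and smooth muscle and mesenchyme genes lost 14 of 148 (9.46%), with 3 at Tgfb2 and 2 each at Lum, Dcn and Postn. Lum and Dcn are neighbours that share the same 2 intervals, both in a skipped stretch of the dox list. With skipped stretches left out, the share of this list was 8.22%. Wnt signalling genes lost 10 of 129 (7.75%, against 12.7% from strength and position), with 2 each at Wnt4, Axin2 and Nkd1. Mesoderm and second heart field progenitor genes lost 8 of 136 (5.88%, against 10.9%), which included 1 interval shared by the neighbours Mesp1 and Mesp2. Housekeeping genes lost 2 of 99 (2.02%), and neural genes 0 of 16, with an upper Wilson bound of 19.4%. Except for the pluripotency list, these intervals include the share given by strength and position, so no departure could be seen at this number of intervals.

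**Figure D4:**
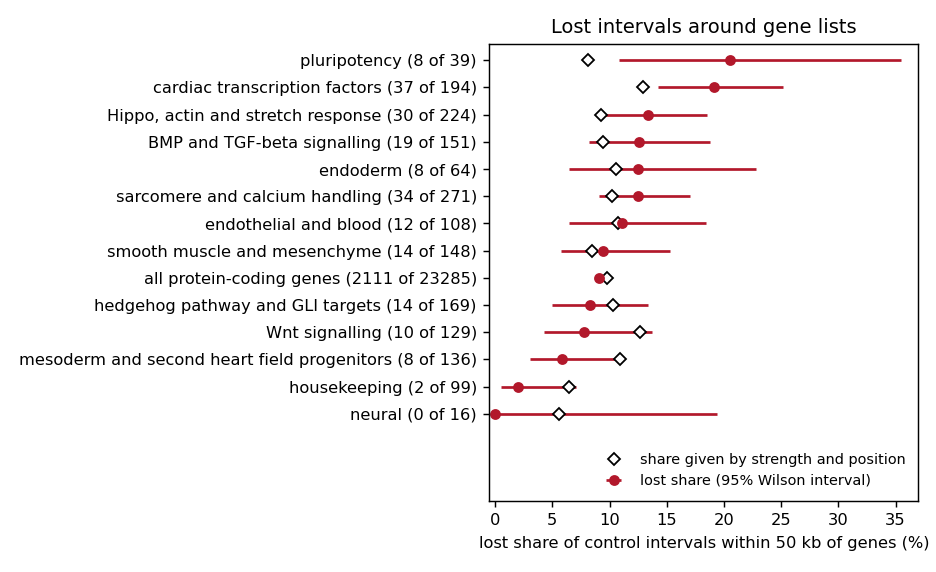
Lost share of control intervals within 50 kb of the genes of each list (x axis, percent; red points with 95% Wilson intervals; lost and all control intervals in brackets) beside the share given by strength and position (diamonds). The intervals of cardiac transcription factors (19.1% against 12.9%), pluripotency genes (20.5% against 8.13%) and Hippo, actin and stretch response genes (13.4% against 9.22%) lay above their diamonds, those of the other lists included theirs, and all protein-coding genes (9.07% against 9.76%) lay just below. The Wilson intervals count neighbouring control intervals as independent and can be too narrow.

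Promoter sequence was compared last, since RefSeq promoter windows could be placed in the intervals. A start lay inside 85 lost intervals, and 1 window was kept per interval. Of the 86 genes concerned 48 were protein-coding, and 43 of these had no start in any dox interval. The promoter tables hold starts for 17492 protein-coding genes, against 21887 in the gene table. The counts of 85 intervals and 86 genes are therefore lower bounds. Long non-coding RNA genes made up 45.9% of the windows in lost intervals, against 13.4% in retained and 53.8% in gained ones. The windows were less GC-rich, with a median GC content of 54%, against 62% in retained, 59% in retained intervals with a −log10 q under 20 and 51.7% in gained intervals. CpG-rich windows, with a GC content of at least 50% and an observed over expected CpG ratio of at least 0.6, made up 29.4% in lost (20.8 to 39.8%), 72.8% in retained, 55% in weaker retained (51.2 to 58.8%) and 15.9% in gained intervals, and 33.5% of all 32851 windows of this length.

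The motif content followed this difference in part. In all, 15 motifs were searched, and those given here were picked after their values were seen. TEAD motifs, bound by the factors that carry the Hippo signal, matched in 27.1% of windows in lost intervals (18.8 to 37.3%), against 15.1% in weaker retained (12.6 to 18%), 19.3% in gained and 14.7% of all windows. E-boxes, bound by basic helix-loop-helix factors such as HAND2, matched in 42.4% (32.4 to 53%), against 26.1% in weaker retained, 41.4% in gained and 30.6% of all windows. The GC-rich KLF and SP motif (GGGCGGG) matched in 29.4% in lost against 39.9% in weaker retained, and the ETS motif (CCGGAAG) in 3.53% against 17.2%. The GLI motif (GGGTGGTC) was in none of the 85 windows (upper Wilson bound 4.32%), in 0.61% of weaker retained and in 0.807% of all windows. Of the windows in lost intervals 13 held both a TEAD and an E-box match, which shared letters in 1 of them. Among windows of 50 to 60% GC, TEAD matched in 33.3% of 42 windows in lost intervals (21 to 48.4%) and 20.2% in weaker retained ones (15.5 to 25.8%), and E-boxes in 45.2% (31.2 to 60.1%) and 33.5% (27.7 to 39.8%), with counting errors that overlap. Above 60% GC, TEAD matched in 8.33% of 24 windows in lost intervals and 9.03% in weaker retained ones, and E-boxes in 41.7% (24.5 to 61.2%) and 21% (16.8 to 25.8%), again overlapping. Under 50% GC, TEAD matched in 36.8% of 19 windows in lost intervals (19.1 to 59%) and 21.2% in weaker retained ones (14.7 to 29.7%), and E-boxes in 36.8% and 24.8%.

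**Figure D5:**
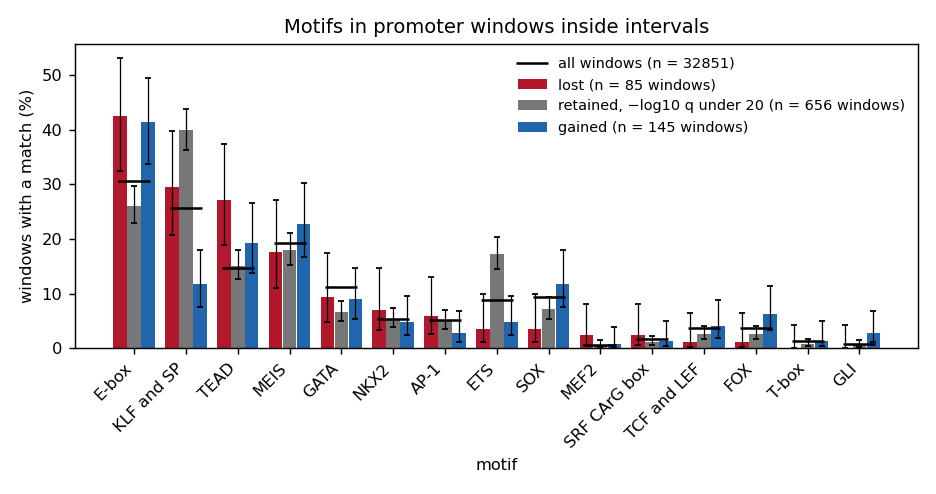
Share of promoter windows with at least 1 match to each motif (y axis, percent; x axis, motifs), in lost (red), weaker retained (grey) and gained (blue) intervals with 95% Wilson intervals; black dashes give all RefSeq windows. Lost windows had more TEAD matches than weaker retained ones (27.1% against 15.1%) and fewer ETS matches (3.53% against 17.2%).

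Of 1005 RefSeq microRNA hairpins, 2 (0.199%) shared a base with a lost interval, against 10% with a retained and 0.0995% with a gained interval. Their mature forms are shown with the seed, bases 2 to 8, in capitals; no 2 of the 3 share a seed.
mmu-miR-34b-5p: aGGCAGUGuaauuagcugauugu
mmu-miR-34b-3p: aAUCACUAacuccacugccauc
mmu-miR-6397: uGGAGACUuucaguggaguga
Mir34b, of the p53-induced miR-34 family, lies on chromosome 9 from 51103562 to 51103645. It was covered by a lost interval with a fold enrichment of 6.27, and the nearest dox interval was 1109 bp away. Mir6397, on chromosome 4 from 108087357 to 108087449, had a lost interval with a fold enrichment of 5.93, 7046 bp from the nearest dox interval.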

How the data were processed

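The authors pooled 2 samples per condition before peak calling, per the deposited file names, and the submitters' processing notes name Bowtie2 2.3.2, SAMtools 1.5, MACS2 2.1.1 and the build mm10 without roles. Each deposited list gives, per summit, a fold enrichment (the authors' ratio over local background), a −log10 p and a −log10 q. The deposited score is 10 times the −log10 q and was not used further. Depth per library is unknown. The deposited GLI1 list holds 101 bp windows, each with a −log10 value that was not used here.

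Summits with the same interval were collapsed to their highest value, and lists were compared by at least 1 shared bp. Pileups were recovered for 99.9% of summits in both lists, within 0.01 of the deposited −log10 p. The RefSeq table for GRCm38.p6 lists 21887 protein-coding genes, of which 1588 with an end in a skipped stretch were left out, and starts and sequences came from RefSeq promoter tables. Retained and gained shares were weighted over bins of −log10 q to the lost intervals. Wilson intervals (95%) cover counting error only. With 1 pooled list per condition no test was possible.

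The regions, lists and rules were chosen with earlier results of these data known. Named were the 20 strongest lost intervals outside skipped stretches, up to 4 genes per list with most lost intervals, the 5 groups with most members, those at or nearest to a GLI1 site and those next to the limit; a few genes that this rule names are not reported here. Promoter genes and microRNAs were chosen after their values were seen. Motifs around distal summits were not counted, because no genome was used here, and RefSeq promoter windows took their place. The scripts were tested on simulated data with Python 3.11.15 and scipy 1.17.1. Alternatives covered the limit of q, the overlap, the distances, the depth of the dox list and the skipped stretches.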

Additional observations from a re-analysis of the deposited data

How the results depend on the processing

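The number of lost intervals depended mostly on the limit and on what counted as overlap. It was 9924 at a −log10 q of at least 5, 638 at 20 and 19 at 50. It was 5926 where less than 50% of the control interval was covered, and 8216 against dox intervals of −log10 q of at least 10 only. It stayed within 1.5 times of 2898 with dox intervals widened by 1000 bp (2305), ranking by fold enrichment (3098), a dox list scaled to the control depth (3076) and skipped stretches left out (2841). At limits of 5, 20 and 50 the median fold enrichment was 4.7, 9.15 and 16.2. The share at gene ends was 8.15% at 20 and 15.8% at 50, and with ends taken within 500 or 5000 bp it was 5.49% and 17.9%. The share with a GLI1 site within 10000 bp was 2.4%, 0.627% and 0% at the 3 limits, below the retained and gained shares at the main limit. By distance it was 0.069% for a shared bp, 10.2% at 50000 bp and 20.2% at 100000 bp. The share with a dox interval within 10000 bp was 61.7% at 5, 68.4% at 50 and 45.2% with widened dox intervals, and it was 20.5%, 42.5% and 86.5% within 1000, 5000 and 50000 bp. List genes with a lost interval numbered 108, against 212, 34 and 3 at the 3 limits and 65 within 10000 bp. At a limit of 20 the lost share was 2.94% over all genes, with 3.54% near cardiac transcription factor genes, 4.3% for sarcomere, 6.54% for Hippo and 3.6% for hedgehog genes. Chosen after the data were seen, the alternatives for promoter windows left TEAD matches at 19.5 to 35.7%, E-boxes at 39.6 to 50% and CpG-rich windows at 22.5 to 35.7%, within the counting errors of the main values.

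No paired analysis was possible because each list pools both replicates, and leaving out a replicate could not be run for the same reason. Motifs around summits of distal intervals were not run. Depth limits the lost set to peaks whose dox signal was under about 11 to 18 reads, so a partial decrease at retained intervals was not described.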

Other observations

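Over all genes analysed, Macrod2, a very long gene, had the most lost intervals within 50000 bp, 10 beside 3 retained and 7 gained ones. Rbms3, Vrtn, Fer1l6, Zfpm2 and Msx2 followed with 6 each. Of the 20299 genes analysed 17445 had none, 2057 had 1, 558 had 2 and 167 had 3. Long genes offer more room for intervals, and the counts were not scaled by length.

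Lost shares ranged between autosomes from 7.16% on chromosome 11 (6.1 to 8.38%) to 14.1% on chromosome 13 (12.2 to 16.1%), which holds the Msx2 group. On the X chromosome 10.6% of control intervals were lost, near the share of all chromosomes, whereas its gained share of 11.5% was lower than on any autosome, where the lowest was 16.4%.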
